A study of Homo sapiens with 9 samples.

Results

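The genes of respiratory complexes II to V and of cytochrome c were followed in ARPE-19 cells, an established human retinal pigment epithelial line, under cigarette smoke condensate. Members were taken by symbol: the SDH subunits and SDHAF assembly factors of complex II, the UQCR genes, CYC1 and BCS1L of complex III, CYCS, the numbered COX genes with SCO1, SCO2 and SURF1 for complex IV, and the ATP5 genes of complex V. A member needed a probe set that names 1 gene, which SCO2 and SURF1, among others, lacked, and 50 of the 14207 genes tested met the rule. They comprised 6 genes of complex II, 9 of complex III with cytochrome c, 22 of complex IV and 13 of complex V. By role, 29 were subunits or cytochrome c, 13 were assembly factors or regulators, and 8 were tissue-restricted isoforms, a related gene or a pseudogene. The rule used names only and no measured value, though members were chosen with earlier results of these data known.

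The study hybridised total RNA to 9 Affymetrix exon arrays, 3 in each of 3 groups: vehicle control, 100 µg/ml condensate and 250 µg/ml condensate. All groups were the same unmodified line, grown to confluence with serum and then kept in medium in which albumin replaced serum. The condensate, from research cigarettes, was supplied in DMSO and contains nicotine. Exposure time and the make-up of the vehicle are not stated in the sources used here. Whether the 3 arrays of a group are separate cultures is also not stated, and the p-values below therefore speak to the scatter of these arrays, which could be purely technical. Values are normalized within the set of arrays, so fewer cells and less RNA per cell cannot be told apart. Of 5 markers of cultured epithelium, KRT8, KRT18 and CDH2 lay in the highest quartile of all genes, with mean log2 values of 10.94, 8.34 and 10.63, whereas KRT19 (3.98) lay below the median gene and CDH1 (2.59) in the lowest quartile. Of 9 markers of pigment epithelium, the transcription factors OTX2 (8.86) and MITF (7.39) and the pigment genes TYRP1 (6.68) and PMEL (4.66) lay above the median gene, SERPINF1 (3.23) lay below it, and RPE65 (2.49), RLBP1 (2.96), BEST1 (2.75) and TTR (2.71) lay in the lowest quartile. By their means over the 9 arrays, the markers of endothelium, leukocytes, fibroblasts and photoreceptors lay below the median gene. On vehicle array 2 the fibroblast marker COL1A1 read 6.55, against 3.50 to 3.75 on the other arrays, and the part of this in the results was not tested.

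As background, complex II (succinate dehydrogenase) passes electrons from succinate to ubiquinone, complex III passes them to cytochrome c, and complex IV (cytochrome c oxidase) passes them to oxygen. Complexes III and IV pump protons, and complex V (ATP synthase) uses the proton gradient to make ATP. Complex II is built wholly from nuclear genes, whereas complexes III, IV and V combine nuclear and mitochondrial gene products. Dedicated assembly factors help insert haem, copper and iron-sulfur groups into the complexes that hold them. The retinal pigment epithelium depends strongly on oxidative phosphorylation.

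Nuclear genes of the chain are known to share promoter elements for NRF1, for ETS factors such as the GABP complex, and for YY1. A RefSeq window on GRCh38.p14, from 250 bases before to 50 bases after the transcript start, was found for 41 of the 50 members. The NRF1 core CGCANGCG, searched on both strands, was present in 15 of the 41 (36.6%), against 16.6% of 15843 protein-coding windows of the same length. The ETS core CCGGAAG was present in 16 of 41 (39.0%), against 16.5%, and the YY1 core AAGATGGC in 5 of 41 (12.2%), against 4.66%. Among subunits NRF1 and ETS cores were each present in 10 of 24 windows, and among assembly factors and regulators they were present in 4 and 6 of 13 windows. These letter matches are a description and not binding sites. The 3 windows below contrast in these cores and belong to members with low unadjusted p-values against vehicle, chosen after their values were seen; capitals mark the cores. SDHA (chr5:218070-218369, plus strand) holds 4 NRF1 cores, whose first bases lie at -165, -116, -67 and -18 relative to the start. COX10 (chr17:14069254-14069553, plus strand) holds 2 ETS cores, at -119 and -19, and a YY1 core at 27. BCS1L (chr2:218659433-218659732, plus strand) holds none of these letter strings.
SDHA: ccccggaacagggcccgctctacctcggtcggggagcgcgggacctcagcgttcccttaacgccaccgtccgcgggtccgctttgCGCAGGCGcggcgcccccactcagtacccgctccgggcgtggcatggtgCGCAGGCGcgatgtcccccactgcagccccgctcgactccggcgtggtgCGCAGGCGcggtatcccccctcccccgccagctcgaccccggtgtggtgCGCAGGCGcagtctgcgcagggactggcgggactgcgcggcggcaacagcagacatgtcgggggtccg
COX10: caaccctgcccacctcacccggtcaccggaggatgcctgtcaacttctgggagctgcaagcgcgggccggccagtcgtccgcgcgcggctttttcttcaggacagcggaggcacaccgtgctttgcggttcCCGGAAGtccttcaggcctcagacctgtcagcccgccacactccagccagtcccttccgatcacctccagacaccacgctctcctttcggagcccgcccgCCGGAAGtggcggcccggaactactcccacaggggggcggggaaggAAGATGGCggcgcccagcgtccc
BCS1L: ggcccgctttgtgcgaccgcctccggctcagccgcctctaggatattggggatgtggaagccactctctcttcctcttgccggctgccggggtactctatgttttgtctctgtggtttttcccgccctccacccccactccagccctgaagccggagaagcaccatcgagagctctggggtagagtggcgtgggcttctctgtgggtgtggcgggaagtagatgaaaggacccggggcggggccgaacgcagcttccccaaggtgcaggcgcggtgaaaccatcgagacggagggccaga

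No member passed an adjusted p of 0.05 in limma, fitted over all genes with Benjamini-Hochberg adjustment, in any of the 3 comparisons. The same test called 0.0633% of all genes at 100 µg/ml, 0.549% at 250 µg/ml and 0% between the doses, so few calls were made anywhere. At an unadjusted p under 0.05 the count was 4 of 50 members (8%) at 100 µg/ml, where 14.6% of all genes passed, 4 of 50 (8%) at 250 µg/ml, where 16.6% passed, and 0 of 50 between the doses, where 1.84% passed. The 3 arrays of a dose lay wholly above or below the 3 vehicle arrays for 4 members at 100 µg/ml, against 18.3% of all genes, and for 6 members (12%) at 250 µg/ml, against 22.9%. Between the doses this held for 1 member (2%), against 6.17%. Each of these member shares lay below its background share, and that difference was not tested. The fit between the doses does not use their pairing by array number; with that number as a block over the 6 treated arrays, 0 members were called and 4 of 50 (8%) had an unadjusted p under 0.05, against 11.2% of all genes in the same fit. The median log2 change of the members was -0.07 at 100 µg/ml and -0.08 at 250 µg/ml, beside -0.05 and -0.04 for all genes. In direction, 21 of 50 members had a higher mean at 100 µg/ml and 20 of 50 at 250 µg/ml.

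How far a missed threshold bounds the change differed between members. The 95% limma interval lay within 1 log2 unit of 0 for 33 of 50 members at each dose (66%), whereas it did so for 82.9% of all genes at 100 µg/ml and 80.7% at 250 µg/ml. For the 8 subunits of complex IV it did so for only 3 at 100 µg/ml and 2 at 250 µg/ml. For the rest of those subunits, a change of 1 log2 unit in at least 1 direction was not outside the interval.

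**Figure D1:**
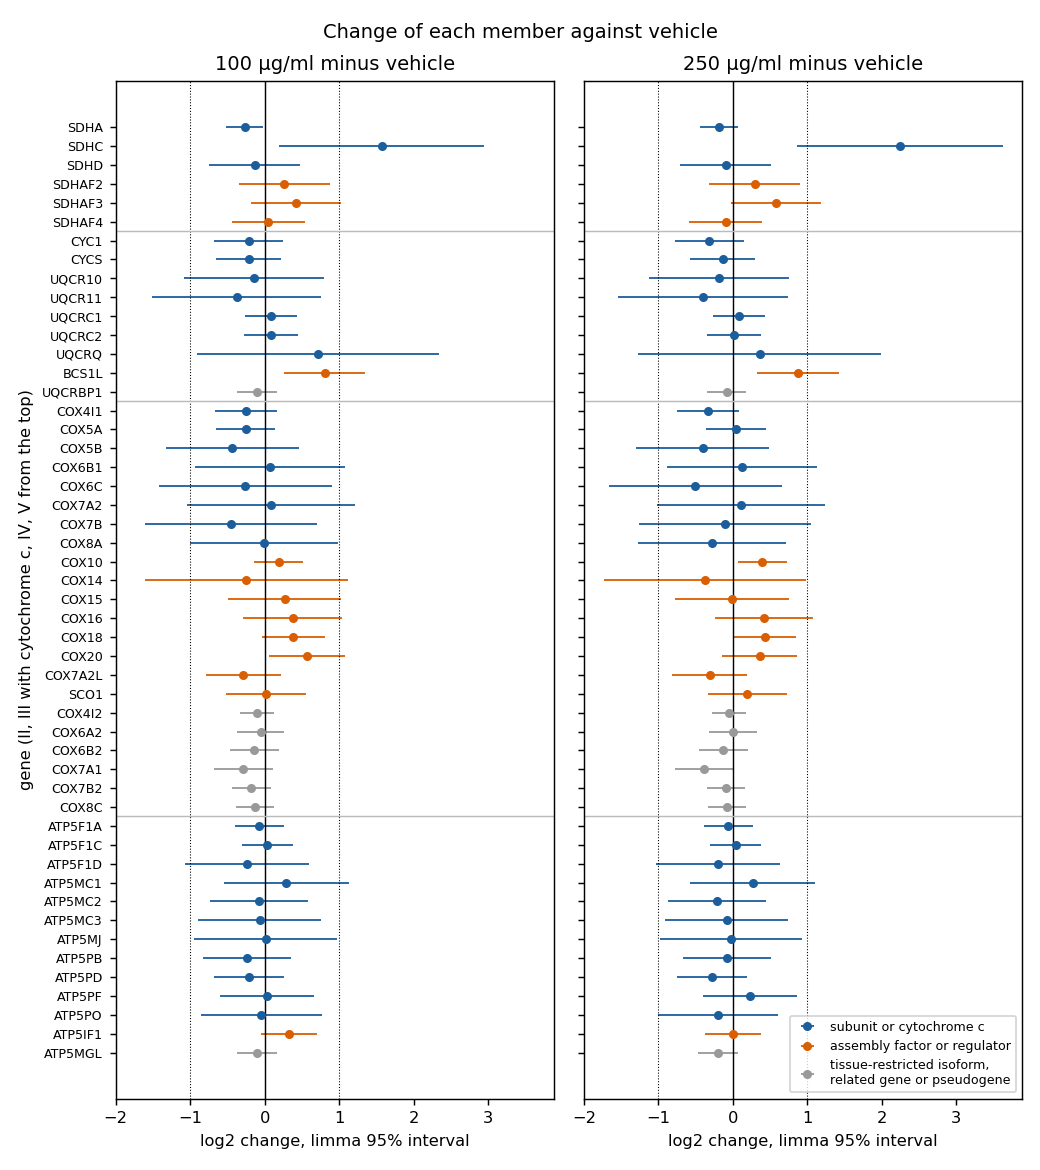
The log2 change of each of the 50 members against vehicle is plotted on the x axis for 100 µg/ml (left) and 250 µg/ml (right), with genes on the y axis ordered by complex and coloured by role. Points are limma estimates over 3 arrays a group and bars are 95% intervals; SDHC at 250 µg/ml (2.24) lies farthest from 0, and most intervals cross it.

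In complex II the largest estimate of all members was found. SDHC encodes a membrane anchor subunit that helps bind ubiquinone and haem. Its log2 values were 4.23, 3.75 and 5.90 with vehicle, 6.76, 5.27 and 6.56 at 100 µg/ml, and 7.17, 6.20 and 7.23 at 250 µg/ml. All 3 arrays at 250 µg/ml lay above vehicle, whereas at 100 µg/ml array 2 lay below vehicle array 3. The log2 change was 1.57 ± 0.60 (SE, n = 3 a group) at 100 µg/ml (limma adjusted p = 0.297), and 0.77 with arrays weighted by their quality (limma adjusted p = 0.439; 0.0997 to 0.581 over all settings). It was 2.24 ± 0.60 at 250 µg/ml (adjusted p = 0.132), a 4.72-fold difference with a 95% interval of 0.86 to 3.62 on the log2 scale. Vehicle replicate 3 stood apart, and without it SDHC passed the threshold at 250 µg/ml (log2 change 2.88, limma adjusted p = 0.0365), the only call of a member under any setting tried. Over all settings the adjusted p of SDHC at 250 µg/ml in limma ran from 0.0365 to 0.484 and the log2 change from 1.80 to 2.88. A second probe set that names both ABCC8 and SDHC was dim and did not show the difference, with means of 3.01, 2.90 and 2.94 in the vehicle, 100 and 250 µg/ml groups. RefSeq lists 5 SDHC pseudogenes, and whether the probes also read them was not tested.

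SDHA, the flavoprotein that oxidises succinate, had values of 10.22, 10.28 and 9.98 with vehicle, 9.87, 9.84 and 9.96 at 100 µg/ml, and 9.93, 9.93 and 10.06 at 250 µg/ml. At 100 µg/ml all 3 arrays lay below vehicle, the only member for which this held at that dose, while the groups overlapped at 250 µg/ml. The change was -0.27 ± 0.11 at 100 µg/ml (limma adjusted p = 0.315) and -0.19 ± 0.11 at 250 µg/ml (adjusted p = 0.423). SDHD, the other membrane anchor, gave 4.63, 5.14 and 4.81 with vehicle, 4.92, 5.16 and 4.10 at 100 µg/ml, and 4.55, 4.83 and 4.91 at 250 µg/ml. These overlapped throughout, with changes of -0.14 and -0.10, and the difference between the anchors was not tested. The assembly factors SDHAF2, which helps attach FAD to SDHA, and SDHAF3, which helps the iron-sulfur subunit, had changes at 250 µg/ml of 0.29 ± 0.27 and 0.57 ± 0.26, which were 0.03 and 0.25 without vehicle replicate 1. SDHAF4, a chaperone of SDHA, had -0.09 ± 0.21. SDHB was not analysed here.

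In complex III the assembly factor BCS1L had the lowest p-value of the members at 100 µg/ml. BCS1L is the AAA translocase that places the Rieske iron-sulfur protein into the complex. It measured 5.41, 5.10 and 4.96 with vehicle, 6.06, 6.15 and 5.68 at 100 µg/ml, and 6.08, 6.46 and 5.55 at 250 µg/ml. Every array at either dose lay above all vehicle arrays. The change was 0.80 ± 0.24 (1.75-fold; limma adjusted p = 0.221) at 100 µg/ml and 0.87 ± 0.24 (1.83-fold; adjusted p = 0.138) at 250 µg/ml. A probe set that names ZNF142 and BCS1L moved the same way by 0.61 and 0.70 with overlapping groups; it cannot separate the genes it names.

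The core proteins UQCRC1 and UQCRC2, which form the matrix arm, stayed close to vehicle. UQCRC1 read 8.09, 7.58 and 8.13 with vehicle, 7.98, 7.96 and 8.10 at 100 µg/ml, and 8.06, 8.06 and 7.91 at 250 µg/ml, a change of 0.08 ± 0.15 at both doses. UQCRC2 read 10.08, 10.56 and 10.53, then 10.42, 10.69 and 10.33, then 10.35, 10.53 and 10.34, with changes of 0.09 ± 0.16 and 0.01 ± 0.16. Their 95% intervals excluded a change of 0.5 log2 units in either direction. CYC1, the haem subunit that hands electrons to cytochrome c, read 7.40, 8.16 and 8.08 with vehicle, 7.67, 7.61 and 7.71 at 100 µg/ml, and 7.33, 7.75 and 7.60 at 250 µg/ml. Vehicle array 1 was the low array of its group, and the changes were -0.22 ± 0.20 and -0.32 ± 0.20. CYCS, the soluble carrier between complexes III and IV, read 5.64, 5.47 and 6.12 with vehicle, 5.77, 5.47 and 5.34 at 100 µg/ml, and 5.65, 5.42 and 5.76 at 250 µg/ml, with changes of -0.21 ± 0.19 and -0.14 ± 0.19. CYCS has 45 RefSeq pseudogenes, the most of any member. UQCRQ had changes of 0.71 ± 0.71 and 0.36 ± 0.71, which turned to -0.05 and -0.41 without vehicle replicate 1. UQCR11 had a change of -0.40 ± 0.50 at 250 µg/ml, and -0.97 without that array. UQCRB was measured only together with its pseudogene UQCRBP1, and UQCRFS1 was not analysed here.

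In complex IV the members with low p-values were assembly factors, namely COX10, COX18 and COX20. COX10 makes haem O, the precursor of haem A. It measured 5.63, 5.86 and 5.70 with vehicle, 5.68, 5.89 and 6.19 at 100 µg/ml, and 6.00, 6.19 and 6.17 at 250 µg/ml. The 250 µg/ml arrays lay above vehicle, with a change of 0.39 ± 0.14 (limma adjusted p = 0.230), against 0.19 ± 0.14 at 100 µg/ml. COX18, an insertase for the COX2 protein, measured 6.00, 6.34 and 6.37 with vehicle, 6.98, 6.40 and 6.48 at 100 µg/ml, and 6.75, 6.79 and 6.45 at 250 µg/ml. Both doses lay above vehicle, though array 2 at 100 µg/ml did so narrowly, with changes of 0.38 ± 0.18 and 0.43 ± 0.18 (limma adjusted p = 0.385 and 0.296). COX20, a chaperone of COX2, measured 7.99, 8.55 and 8.61 with vehicle, 9.28, 8.74 and 8.83 at 100 µg/ml, and 8.93, 8.87 and 8.43 at 250 µg/ml. It lay above vehicle at 100 µg/ml, with a change of 0.57 ± 0.22 (limma adjusted p = 0.305), and overlapped at 250 µg/ml, with 0.36 ± 0.22. Without the arrays numbered 1 of all groups, the changes at 100 µg/ml were 0.08 for COX18 and 0.20 for COX20. SCO1, a copper chaperone for COX2, read 6.85, 7.56 and 7.62, then 7.52, 7.30 and 7.25, then 7.70, 7.17 and 7.75, with changes of 0.02 ± 0.23 and 0.19 ± 0.23, the latter -0.05 without vehicle replicate 1. COX7A2L, a factor that joins complexes III and IV into supercomplexes, read 9.35, 10.07 and 10.26 with vehicle, 9.66, 9.46 and 9.71 at 100 µg/ml, and 9.56, 9.45 and 9.74 at 250 µg/ml, with changes of -0.29 ± 0.22 and -0.31 ± 0.22. Vehicle array 1 was below the treated means and vehicle arrays 2 and 3 were above them.

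**Figure D2:**
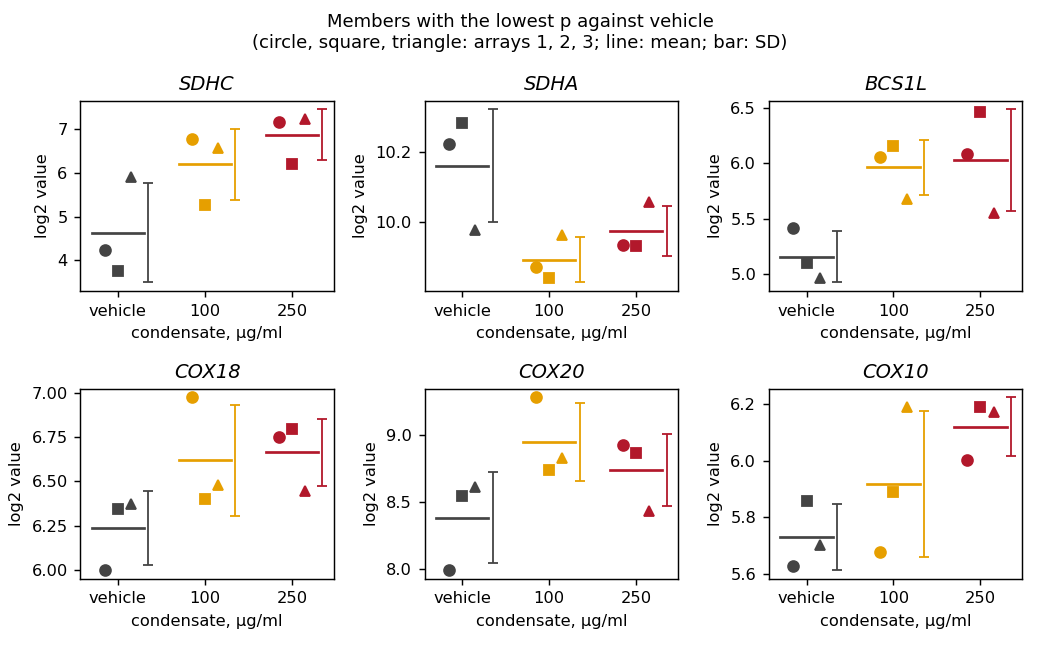
The log2 value on each of the 9 arrays is plotted for the 6 members with an unadjusted p under 0.05 against vehicle at either dose, by condensate dose in µg/ml on the x axis. Symbols are arrays 1, 2 and 3 of a group, lines are means and bars are SDs; the y axes differ, and SDHC spans the widest range, from 3.75 to 7.23.

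Among the structural subunits of complex IV, COX4I1, the common isoform of subunit 4, read 5.70, 6.27 and 5.99 with vehicle, 5.84, 5.85 and 5.51 at 100 µg/ml, and 5.82, 5.40 and 5.73 at 250 µg/ml. Its changes were -0.25 ± 0.18 and -0.34 ± 0.18, with overlapping groups. COX4I2, the isoform of subunit 4 found mainly in lung and linked to low oxygen, lay in the lowest quartile of genes. It read 2.80, 2.59 and 2.69 with vehicle, 2.61, 2.65 and 2.50 at 100 µg/ml, and 2.67, 2.70 and 2.54 at 250 µg/ml. Its changes were -0.10 ± 0.10 and -0.05 ± 0.10, with overlapping groups. COX5A, a matrix-side subunit, read 8.49, 8.45 and 8.56 with vehicle, 8.25, 8.02 and 8.46 at 100 µg/ml, and 8.60, 8.20 and 8.83 at 250 µg/ml. Both doses overlapped vehicle, with changes of -0.26 ± 0.17 and 0.04 ± 0.17, and they overlapped each other. The higher minus the lower dose was 0.30 ± 0.17 (limma adjusted p = 1.000), above 0 in all 3 same-numbered pairs (adjusted p = 0.330 with the block over the treated arrays). COX5B, COX6C and COX7B had changes at 250 µg/ml of -0.41 ± 0.39, -0.51 ± 0.51 and -0.11 ± 0.51. Without vehicle replicate 1 these changes were -0.89, -0.996 and -0.64. The isoforms typical of muscle or testis (COX6A2, COX6B2, COX7A1, COX7B2 and COX8C) all lay below the median gene. COX7A1, the heart and muscle form of subunit 7A, read 3.41, 3.84 and 3.26 with vehicle, 3.44, 3.22 and 2.99 at 100 µg/ml, and 3.14, 3.04 and 3.16 at 250 µg/ml, where it lay below vehicle with a change of -0.39 ± 0.17 (limma adjusted p = 0.304).

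In complex V no member had an unadjusted p under 0.05 against vehicle at either dose. ATP5F1A, the F1 alpha subunit, read 10.41, 10.70 and 10.96 with vehicle, 10.73, 10.59 and 10.54 at 100 µg/ml, and 10.54, 10.65 and 10.70 at 250 µg/ml, with changes of -0.07 ± 0.14 and -0.06 ± 0.14. The 3 genes for the proton-carrying c ring had changes with wide errors. ATP5MC1 read 3.34, 4.81 and 4.89 with vehicle, 4.47, 4.83 and 4.60 at 100 µg/ml, and 4.55, 4.80 and 4.48 at 250 µg/ml. Its changes were 0.29 ± 0.37 and 0.27 ± 0.37, and -0.21 and -0.24 without vehicle array 1. ATP5MC2 read 4.83, 5.38 and 5.74, then 5.06, 5.16 and 5.51, then 4.98, 4.72 and 5.62, with -0.08 ± 0.29 and -0.21 ± 0.29. ATP5MC3 read 7.22, 8.07 and 8.40, then 7.52, 7.55 and 8.41, then 7.44, 7.77 and 8.23, with -0.07 ± 0.36 and -0.08 ± 0.36. Without vehicle array 1 the changes of ATP5MC3 were -0.41 and -0.42, and that of ATP5MC2 at 100 µg/ml was -0.32. Among peripheral stalk subunits, ATP5PD had -0.28 ± 0.21 and ATP5PF 0.23 ± 0.28 at 250 µg/ml, the latter 0.02 without vehicle replicate 1. ATP5IF1, which inhibits ATP hydrolysis by the F1 part, was the only member whose doses did not overlap: 5.72, 6.02 and 6.32 with vehicle, 6.19, 6.47 and 6.38 at 100 µg/ml, and 5.93, 5.94 and 6.19 at 250 µg/ml. To the second decimal the lowest value at 100 µg/ml and the highest at 250 µg/ml were equal. The higher dose minus the lower was -0.33 ± 0.17 (limma adjusted p = 1.000), below 0 in all 3 same-numbered pairs (adjusted p = 0.335 with the block over the treated arrays). ATP5MGL, a gene related to the g subunit, was dim and lay below vehicle at 250 µg/ml with a change of -0.20 ± 0.12.

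Read by role, the subunits and the assembly factors had medians of opposite sign, and both moved with vehicle array 1. Of the 13 assembly factors and regulators, 11 (84.6%) had a higher mean at 100 µg/ml and 9 (69.2%) at 250 µg/ml. Their median log2 changes were 0.27 and 0.29. Of all genes 40.8% and 42.7% had a higher mean. The shares were 61.1% and 58.3% for complex I genes and 60% and 69.2% for mitochondrial ribosomal protein genes. A share above that of all genes was therefore not particular to this class. Limma called 0 of the 13, and 2 (15.4%) and 3 (23.1%) had an unadjusted p under 0.05, against 14.6% and 16.6% of all genes. Of the 29 subunits, 10 had a higher mean at each dose, with medians of -0.08 and -0.10. Without vehicle replicate 1, the assembly median was 0.11 at 100 µg/ml and 0.03 at 250 µg/ml, with 9 and 7 of 13 higher. The subunit median was then -0.38 and -0.41, with 2 and 4 of 29 higher. Without vehicle replicate 2 or 3 the subunit median was instead above 0 at both doses, from 0.04 to 0.09. The medians of the subunits therefore had no direction that held across the vehicle arrays.

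Vehicle replicate 1 was low for much of the chain. The members' mean deviation from their own mean over 9 arrays was -0.48 on that array, against 0.22 and 0.21 on the other vehicle arrays, and it was -0.07 for all genes. It was the lowest of the 9 arrays for 26 of 50 members (52%), against 17.5% of all genes, 61.1% of complex I genes and 61.5% of mitochondrial ribosomal protein genes. It was the lowest of the vehicle arrays for 39 of 50 (78%), against 41.0%, 83.3% and 86.2% of the same sets. The members farthest below the mean of the other vehicle arrays differed from it by -2.31 for UQCRQ, -2.19 for the assembly factor COX14, -1.71 for UQCR11, -1.69 for COX8A, -1.62 for COX7A2 and -1.61 for COX7B. UQCRQ, a small subunit of complex III, read 5.57, 7.65 and 8.10 with vehicle, 7.41, 7.73 and 8.32 at 100 µg/ml, and 6.23, 8.09 and 8.07 at 250 µg/ml. BCS1L (0.38), UQCRC1 (0.24), COX4I2 (0.16), SDHA (0.09), ATP5PD (0.08), COX7B2 (0.08) and COX6A2 (0.01) were instead higher on vehicle array 1. For 19 of 50 members (38%) the array numbered 1 was the lowest in all 3 groups, against 9.80% of all genes, 30.6% of the 36 complex I genes and 47.7% of the 65 mitochondrial ribosomal protein genes. The median SD among vehicle arrays was 0.35 for the members and 0.53 for the subunits, against 0.21 for all genes. What sets this array apart was not tested.

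**Figure D3:**
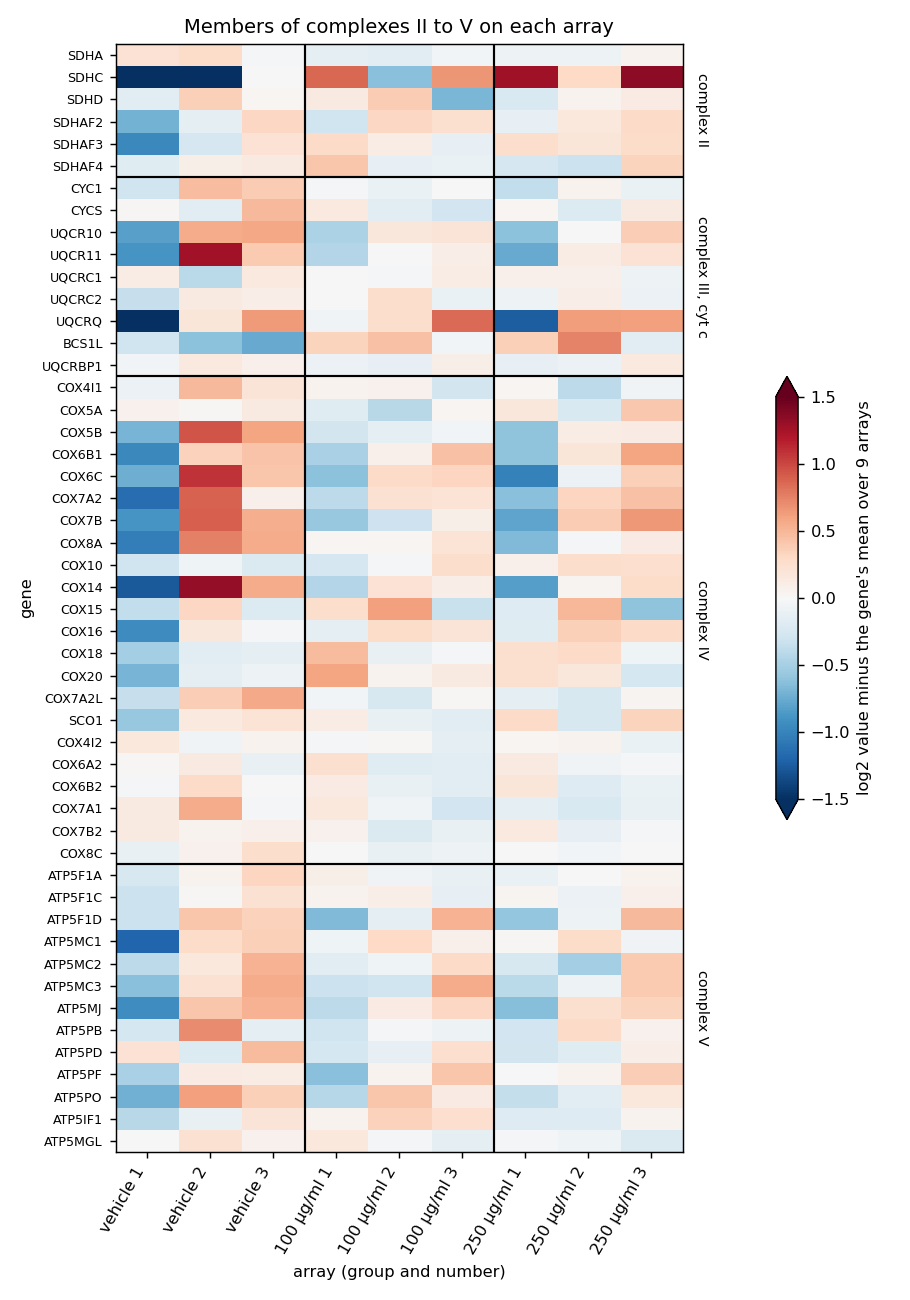
Colour gives the log2 value of each of the 50 members (rows, by complex) on each array (columns, by group and number) minus that gene's mean over the 9 arrays, with the scale ending at 1.5 in each direction. The first vehicle column is blue, meaning low, for most rows, and SDHC is blue on vehicle arrays 1 and 2 and red on all 3 arrays at 250 µg/ml.

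**Figure D4:**
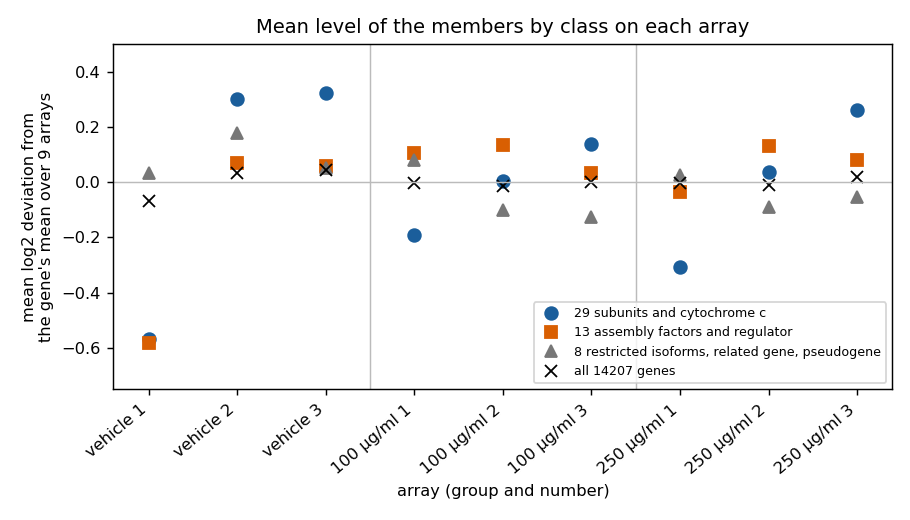
The y axis gives the mean log2 deviation from each gene's own mean for the 3 classes of member and for all genes on each of the 9 arrays (x axis). On vehicle array 1 subunits lie at -0.57 and assembly factors at -0.58, while all genes lie at -0.07.

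Without vehicle replicate 1, 8 members (16%) had an unadjusted p under 0.05 at 100 µg/ml and 9 (18%) at 250 µg/ml, near the 15.6% and 17.1% of all genes in the same fits, and 0 passed the limma threshold. In that fit the changes at 250 µg/ml included -0.56 for CYC1, -0.58 for COX7A2L, -0.89 for COX5B, -0.97 for UQCR11 and -1.11 for COX14. Their limma adjusted p-values were 0.115, 0.104, 0.130, 0.237 and 0.205. COX6C (-0.996) and COX8A (-0.84) had changes of similar size. At 250 µg/ml 37 of the 50 members had a lower mean in that fit and 13 a higher mean. SDHC (2.04) and BCS1L (1.00) kept changes above 0.

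Other genes of complexes II to V outside the naming rule, assembly factors and regulators for the most part, were also measured. Of 21 such genes 0 were called by limma; 2 (9.52%) had an unadjusted p under 0.05 at 100 µg/ml and 4 (19.0%) at 250 µg/ml, all with higher means, near the 14.6% and 16.6% of all genes. At 250 µg/ml these were TTC19 (0.65 ± 0.21; adjusted p = 0.194) and LYRM7 (0.81 ± 0.31; adjusted p = 0.253), which both act on the Rieske step of complex III, and FASTKD1 (0.70 ± 0.25) and FASTKD2 (0.51 ± 0.22), which act on mitochondrial RNA. Vehicle array 1 was the lowest vehicle array for each of these 4 genes. TTC19 read 6.86 there against 7.36 and 7.81 on the other vehicle arrays, and LYRM7 read 4.68 against 5.58 and 5.22. FASTKD1 read 4.18 against 4.74 and 4.46, and FASTKD2 read 5.84 against 5.85 and 6.40. How far their changes depend on that array was not tested. The median changes of the 21 genes were 0.02 and 0.19. For comparison, the medians at the lower and higher dose were 0.07 and 0.08 for complex I genes and 0.11 and 0.13 for mitochondrial ribosomal protein genes. These values share the vehicle arrays with those of the members.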

How the data were processed

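The deposited values are log2 summaries of Affymetrix exon array probe sets, 1 column per array; RMA, Partek and build hg18 are listed in the submitters' processing notes, without settings or filters. RMA compresses changes of dim genes. Of 17629 probe sets 14378 named 1 gene, 2405 several and 846 none; symbols were updated through RefSeq (GRCh38.p14; 28 unmatched), and the brightest of several probe sets was kept (169 genes), leaving 14207 genes. The limma package (3.58.1, R 4.3.3) was run on the 9 arrays together, with a mean for each group and Benjamini-Hochberg adjustment over all genes. The fit was also tried on simulated data with independent noise for each gene. That simulation held no array effect and no pairing, so it does not bear on the low vehicle array 1. Errors are moderated SEs. Members and lists were chosen with earlier results of these data known. All 9 values are given for the 4 members of lowest p in each comparison and for a fixed list of core genes. Array numbers paired the doses in the data (r = 0.60, 0.44 and 0.68 between same-numbered deviations). Vehicle array 1 had r of 0.26 and 0.23 with the arrays numbered 1 of the doses, against -0.23 to 0.02 with their other arrays. Vehicle arrays 2 and 3 were not paired by number (-0.14 to 0.03), and vehicle array 2 had 0.23 with array 3 at 250 µg/ml. No sample was left out; 12 genes matching the rule were measured solely by probe sets naming more than 1 gene. The number of arrays limits precision.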

Additional observations from a re-analysis of the deposited data

How the results depend on the processing

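The count of members called was 0 in each comparison under array centring, quantile normalization, a filter on dim genes and fits of 6 arrays. It was also 0 under array weights, other variance models, averaging probe sets and adding probe sets that name several genes. No member had several probe sets of its own, so averaging left the members' values as they were. The exception to the count of 0 was 250 µg/ml against vehicle without vehicle replicate 3, where 1 member, SDHC, was called. Leaving out each array in turn gave counts of 0 to 1 there and 0 in the other comparisons. The members' median change ranged from -0.22 to 0.09 at 100 µg/ml, from -0.20 to 0.05 at 250 µg/ml, and from -0.04 to 0.06 between the doses, so its sign depends on the arrays used. Without the arrays numbered 1 of all groups, chosen after seeing the data, it was -0.23 and -0.13. With the array number as a replicate block, 0 members were called in each comparison, and SDHC at 250 µg/ml had a limma adjusted p of 0.0511. With a block over the 6 treated arrays alone, added after seeing the data, 0 were called between the doses and 4 (8%) had an unadjusted p under 0.05, against 11.2% of all genes. Over all settings, single members changed sign in 74 of 895, 71 of 895 and 114 of 945 refits at 100 µg/ml, at 250 µg/ml and between the doses. These refits include the dim-gene filter, fits of 6 arrays, variance models, replicate blocks and probe-set settings, which leave a member's log2 change as it was. No sign could change in those refits, so the shares understate how often the remaining settings changed a sign. The cause of the sign changes was not tested.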

Other observations

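Some genes of the chain were measured solely by probe sets naming more than 1 gene, so their values cannot be given to 1 gene. The set naming the mitochondrially encoded COX3, ATP6 and ATP8, together with ATP13A5, read 11.43, 11.65 and 11.45 with vehicle, 11.87, 11.97 and 11.65 at 100 µg/ml, and 11.24, 11.29 and 11.37 at 250 µg/ml. The 250 µg/ml arrays lay below both other groups. The higher dose minus the lower was -0.53 ± 0.12 (limma adjusted p = 1.000), and the higher dose minus vehicle was -0.21 ± 0.12 (adjusted p = 0.398). The lower dose minus vehicle was 0.32 ± 0.12 (limma adjusted p = 0.280), with overlapping groups. The set naming ATP5F1B, the catalytic beta subunit of ATP synthase, and small nucleolar RNAs had changes of 0.28 ± 0.14 and 0.29 ± 0.14 against vehicle. The set naming COX17, a copper chaperone, and POPDC2 was dim and had a change of -0.55 ± 0.17 at 100 µg/ml (limma adjusted p = 0.236). The set naming ATP5PO and DONSON had 1.10 ± 0.43 at 100 µg/ml (limma adjusted p = 0.306), whereas ATP5PO's own set had -0.04.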
